A study of Homo sapiens with 2 samples.

Results

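Divergent promoters, the stretches of DNA between the starts of 2 genes that are transcribed away from each other, were examined for GATA1 in Meg-01 cells. Members were the genomic probes whose array annotation names a divergent promoter. They numbered 12343 of 474411 genomic probes (2.60%) and lay between the genes of 1474 pairs, with 5107 probes of 615 pairs on the array called chIP1 and 7236 probes of 859 pairs on the array called chIP2. Meg-01 is a human megakaryoblastic leukemia cell line, and the cells were untreated. DNA pulled down with the C-20 antibody to the C-terminus of GATA1 (the IP) was labeled with Cy5, DNA pulled down with normal goat IgG was labeled with Cy3, and both were hybridized together. The arrays hold different probes, so each probe was measured in 1 hybridization, dyes were not swapped, and a dye bias cannot be told apart from enrichment. There were no replicates and no test was possible, and how precise a value is remains limited by having 2 arrays.

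GATA1, a zinc finger protein that recognizes GATA sequences, is needed to make red cells and megakaryocytes. Pairs of genes that start close together and run in opposite directions are common in the human genome, often share a CpG island, and are rich in housekeeping genes for DNA repair, mitochondria, chaperones and the ribosome. A protein bound between such starts sits in the promoter of both genes. The sonicated chromatin fragments were on average longer than the distance between the starts of most close pairs, so signal at one start and signal at the other cannot be told apart there.

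The value used throughout was log2 of the processed IP signal over the processed IgG signal, centered so that each array had a median of 0. A window averaged 3 neighboring probes whose outer members lay no more than 1000 bp from the middle one, and it was counted for the pair whose probe it was centered on. A window at or above 1 (2-fold) was placed on the IP side and a window at or below -1 on the IgG side. Of the 12343 probes, 12338 were kept, 10561 were the center of a window, and 1418 of the 1474 pairs had at least 1 window. Of the divergent probes, 99.9% were well above background in Cy5 and 99.7% in Cy3, and none was saturated. Pairs were called close when their starts lay at most 1000 bp apart (595 pairs, median 263 bp), intermediate up to 5000 bp (352 pairs, median 2616.5 bp) and wide beyond that (527 pairs, median 9592 bp). Close pairs held a median of 1 probe, intermediate pairs 9 and wide pairs 13. The windows of close pairs therefore often averaged in neighboring probes that were not annotated as divergent.

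These 5 promoter sequences are shown because they mark the range of the close pairs described later: 1 pair at the top of the IP signal, 2 textbook pairs on the IP side and 2 pairs with no enrichment. They are RefSeq promoters on GRCh38.p14, 5′ to 3′ on the strand of the named gene, from 250 bases before its start to 50 bases into it, and the capitals mark the bases between the starts of both genes. KIF9 (partner KLHL18) is at chr3:47282750-47283049 on the minus strand, with RefSeq starts 145 bases apart. HSPE1 (partner HSPD1) is at chr2:197500129-197500428 on the plus strand, with starts 105 bases apart. TK1 (partner AFMID) is at chr17:78187155-78187454 on the minus strand, with starts 158 bases apart. TRAPPC1 (partner CNTROB) is at chr17:7931950-7932249 on the minus strand, with starts 82 bases apart. SELENOF, named SEP15 on the array (partner HS2ST1), is at chr1:86914528-86914827 on the minus strand, with starts 58 bases apart.
KIF9: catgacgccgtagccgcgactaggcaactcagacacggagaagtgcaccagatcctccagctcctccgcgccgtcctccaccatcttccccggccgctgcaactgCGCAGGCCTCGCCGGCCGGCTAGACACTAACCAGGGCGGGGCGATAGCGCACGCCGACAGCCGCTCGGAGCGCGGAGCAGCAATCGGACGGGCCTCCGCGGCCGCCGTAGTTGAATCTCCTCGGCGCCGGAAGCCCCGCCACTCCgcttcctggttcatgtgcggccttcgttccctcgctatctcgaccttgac
HSPE1: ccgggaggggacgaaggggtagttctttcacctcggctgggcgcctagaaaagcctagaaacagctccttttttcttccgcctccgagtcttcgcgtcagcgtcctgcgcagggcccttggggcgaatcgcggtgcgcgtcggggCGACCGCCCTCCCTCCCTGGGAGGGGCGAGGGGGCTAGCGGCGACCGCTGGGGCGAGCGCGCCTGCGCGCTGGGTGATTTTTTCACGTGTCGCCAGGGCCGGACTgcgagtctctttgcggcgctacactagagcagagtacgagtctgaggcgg
TK1: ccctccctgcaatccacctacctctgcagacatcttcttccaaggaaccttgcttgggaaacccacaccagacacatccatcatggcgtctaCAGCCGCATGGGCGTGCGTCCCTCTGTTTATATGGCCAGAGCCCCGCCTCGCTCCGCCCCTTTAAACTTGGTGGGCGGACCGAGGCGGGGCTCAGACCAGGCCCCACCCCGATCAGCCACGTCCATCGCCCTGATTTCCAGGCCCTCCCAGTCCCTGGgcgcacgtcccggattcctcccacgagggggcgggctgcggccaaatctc
TRAPPC1: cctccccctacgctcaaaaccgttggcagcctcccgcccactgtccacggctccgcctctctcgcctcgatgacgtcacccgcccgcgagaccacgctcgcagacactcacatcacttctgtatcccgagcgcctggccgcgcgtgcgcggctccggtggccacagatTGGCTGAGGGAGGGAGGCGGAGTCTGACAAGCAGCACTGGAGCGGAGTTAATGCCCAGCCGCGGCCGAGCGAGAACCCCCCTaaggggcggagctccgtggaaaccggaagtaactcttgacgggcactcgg
SELENOF: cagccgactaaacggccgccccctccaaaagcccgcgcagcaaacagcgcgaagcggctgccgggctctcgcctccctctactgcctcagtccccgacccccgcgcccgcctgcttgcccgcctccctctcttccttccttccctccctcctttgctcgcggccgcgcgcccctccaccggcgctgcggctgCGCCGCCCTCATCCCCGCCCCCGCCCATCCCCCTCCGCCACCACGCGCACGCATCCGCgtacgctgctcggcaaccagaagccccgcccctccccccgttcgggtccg
All of them are GC-rich, from 64.0% in TK1 to 74.7% in SELENOF, and hold between 19 CpG dinucleotides (TK1) and 39 (SELENOF). The GATA consensus WGATAR was searched on both strands as AGATAA or AGATAG or TGATAA or TGATAG. It matched once, in KIF9, beginning 34 bases downstream of the start, and not in the other 4 windows. The array annotation places the starts farther apart than RefSeq does for each of these pairs, at 351 bp for KIF9-KLHL18, 121 bp for HSPD1-HSPE1, 311 bp for TK1-AFMID, 214 bp for TRAPPC1-CNTROB and 254 bp for SEP15-HS2ST1, and the array distances are used in the rest of the text.

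Divergent promoter windows lay on the IP side more often, and on the IgG side less often, than the arrays at large. On the IP side were 1059 of 10561 windows (10.0%), against 7.62% of all 415409 windows. On the IgG side were 664 (6.29%), against 9.65% of all windows. The median divergent window was 0.16 on the log2 scale, with 5% of windows below -1.09 and 5% above 1.25. Promoter windows of single genes had 7.53% on the IP side, 11.4% on the IgG side and a median of -0.03 over 189064 windows. Divergent windows were also brighter, with a median log2 intensity of 10.19 against 9.63 for single-gene windows.

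The distance between the starts of the pair ordered the signal. Close pairs had 281 of 1143 windows on the IP side (24.6%), 1 on the IgG side (0.0875%) and a median of 0.66. Intermediate pairs had 309 of 3163 (9.77%) and 116 (3.67%), with a median of 0.22. Wide pairs had 469 of 6255 (7.50%) and 547 (8.75%), with a median of 0.01, and so were near the shares over all windows. The arrays were alike in this order. On chIP1 the IP-side shares were 25.1%, 9.39% and 6.60% for close, intermediate and wide pairs, and on chIP2 they were 24.2%, 10.0% and 8.19%.

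In finer steps the IP-side share was highest at start-to-start distances of 250 to 500 bp, where 120 of 388 windows (30.9%) passed and none was on the IgG side. At up to 250 bp it was 19.3% of 305 windows, again with none on the IgG side. At 500 to 1000 bp it was 22.7% of 450 windows. It was then 12.9% at 1000 to 2000 bp, 8.75% up to 5000 bp, 8.14% up to 10000 bp and 5.93% up to 20000 bp. The IgG-side share ran the other way, from 1.29% at 1000 to 2000 bp to 10.8% at 10000 to 20000 bp. The only close pair with an IgG-side window was PCSK4-C19orf32, a proprotein convertase gene and its neighbor, whose 5 windows ran from -1.02 to 0.39.

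**Figure D1:**
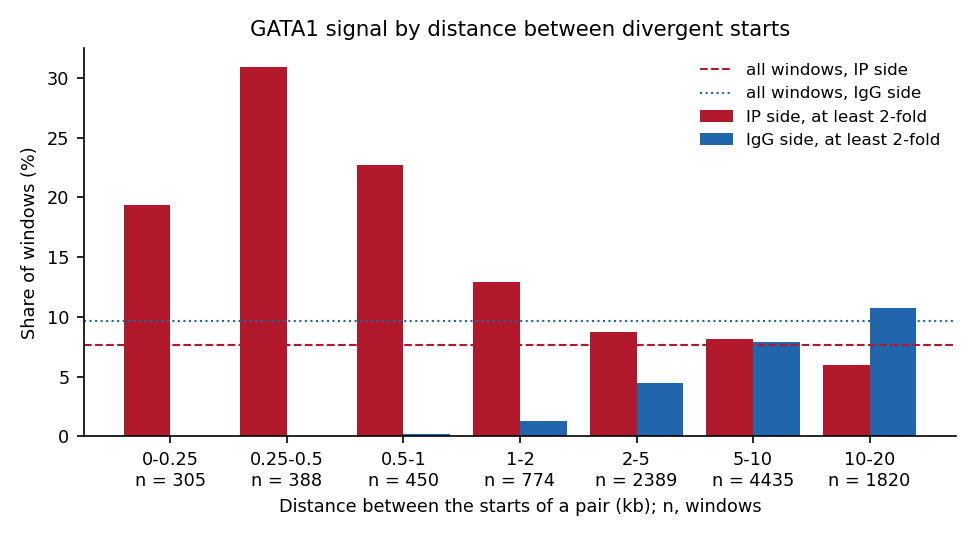
Bars give the share of divergent promoter windows (percent) that lay at least 2-fold on the IP side (red) or the IgG side (blue), by the distance between the starts of the pair in kb, and n is the number of windows pooled over both arrays. Dashed and dotted lines mark the shares over all windows, 7.62% and 9.65%; red bars are above the dashed line up to 10 kb and fall from 30.9% at 0.25 to 0.5 kb to 5.93% at 10 to 20 kb.

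Close pairs can only be sampled near a start, so they were set against single-gene windows at the same distance. With single-gene windows weighted to the same 500 bp distance bins, 10.5% of them were on the IP side against 24.6% for close pairs, a difference of 14.0 percentage points, and 4.98% were on the IgG side against 0.0875%, a difference of -4.89 points. The medians were 0.66 and 0.24. The difference on the IP side was 13.8 points on chIP1 and 14.4 points on chIP2. Intermediate pairs differed from single genes by 0.791 points on the IP side (-0.171 on chIP1 and 1.58 on chIP2), and wide pairs by -0.0443 points (-1.22 on chIP1 and 0.900 on chIP2). Over all divergent windows the IP-side difference was 1.73 points, the IgG-side difference was -3.01 points, and the medians were 0.16 and 0.06. That IP-side difference was 0.734 points on chIP1 and 2.55 points on chIP2, and at a 3-fold threshold it was -0.0459 points over both arrays. After loess normalization within each array the difference on the IP side was 6.95 points for close pairs and 0.274 points for all divergent windows.

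Brightness moved with these differences. Close-pair windows had a median log2 intensity of 11.16, against 10.14 for single-gene windows within 500 bp of a start, and the raw IP and IgG signals of their center probes had medians of 1088 and 565, against 637 and 452. The negative control spots had medians of 341 and 303. Intensity quartiles were read for all 1143 close-pair windows (1139 within 500 bp of a start) and for other windows within 500 bp. In the brightest quartile, 212 of 777 close-pair windows (27.3%) were on the IP side. So were 14.5% of 1349 windows of intermediate and wide pairs and 12.2% of 12287 single-gene windows. In the third quartile the shares were 23.1%, 8.90% and 8.28%. In the second they were 12.1% (15 of 124 close-pair windows), 9.05% and 8.53%. In the dimmest quartile they were 18.6%, 15.4% and 12.7%, with 8 of 43 close-pair windows behind the first. With single-gene windows matched on 100 bp distance bins and intensity deciles together, close pairs differed by 11.7 points (IP side) and by -1.87 points (IgG side).

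**Figure D2:**
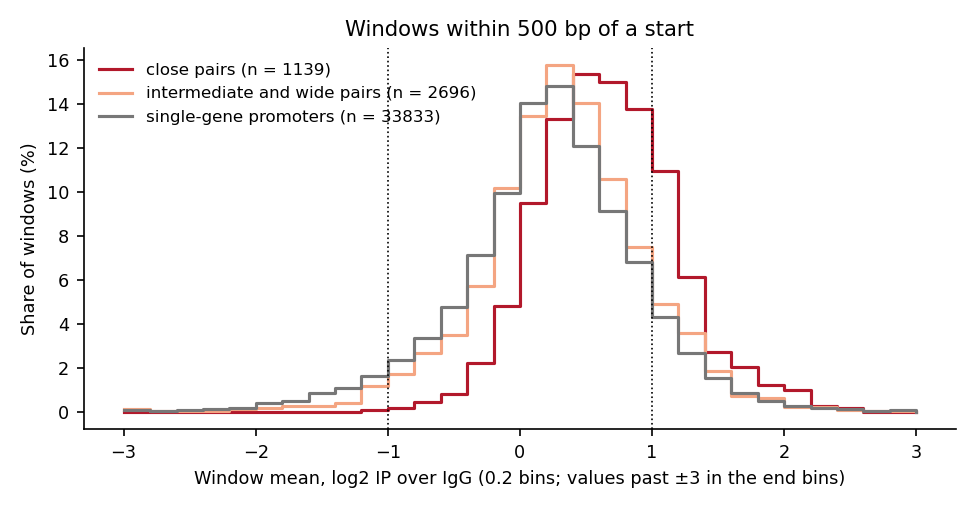
Distribution of window means (log2 IP over IgG, bins of 0.2) for windows within 500 bp of a start, as percent of the windows of close pairs (red), of intermediate and wide pairs (orange) and of single-gene promoters (gray), pooled over both arrays. Dotted lines mark 2-fold on either side; the red curve is shifted to the right as a whole, with a median of 0.65 against 0.32 and 0.24, and almost no red lies left of -1.

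**Figure D3:**
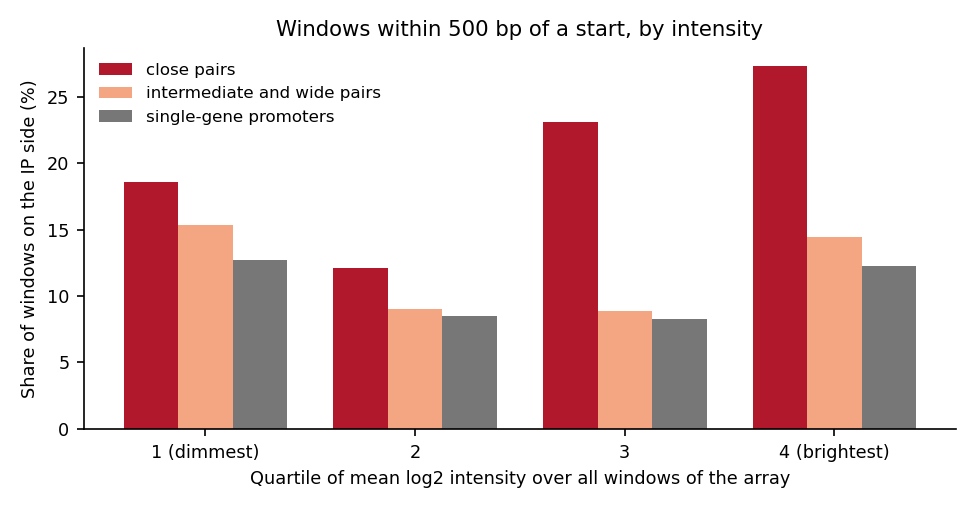
Share of windows that lay on the IP side (percent), by quartile of window intensity on the array. Close pairs (red) are shown with all 1143 windows, of which 1139 were within 500 bp of a start. Intermediate and wide pairs (orange) and single-gene promoters (gray) are shown with windows within 500 bp of a start. The red bar is the tallest in each quartile, from 12.1% in the second to 27.3% in the brightest, where single-gene promoters reached 12.2%.

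Near a start, the other pairs resembled single genes more than close pairs. Within 500 bp of the nearer start, windows of intermediate pairs were on the IP side in 12.7% of 1561 cases and windows of wide pairs in 11.7% of 1135, against 10.5% of 33833 single-gene windows. Between 500 and 1000 bp, all divergent windows had 8.64% on the IP side and single-gene windows 8.04%. Between 1500 and 2000 bp the shares were 5.15% and 6.58%. The IgG-side share grew with distance in both kinds, from 1.88% within 500 bp to 9.36% at 1500 to 2000 bp in divergent windows and from 4.97% to 12.1% in single-gene windows.

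The signal of close pairs was centered between the starts. Over all kept probes around these pairs, annotated as divergent or not, the median was 0.64 and 0.68 in the 250 bp on either side of the midpoint of the starts, where 30.1% of probes on both sides were at least 2-fold on the IP side. It was 0.45 and 0.44 in the next 250 bp and 0.31 and 0.24 in the 250 bp after that. Beyond 1250 bp the medians lay between -0.19 and 0.04. The share of probes on the IgG side ran from 0.577% and 0.490% next to the midpoint to 16.3% and 12.7% at the outer edges. Brightness fell outward as well, from a median log2 intensity of 11.29 and 11.27 next to the midpoint to 9.82 and 9.83 at the edges.

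**Figure D4:**
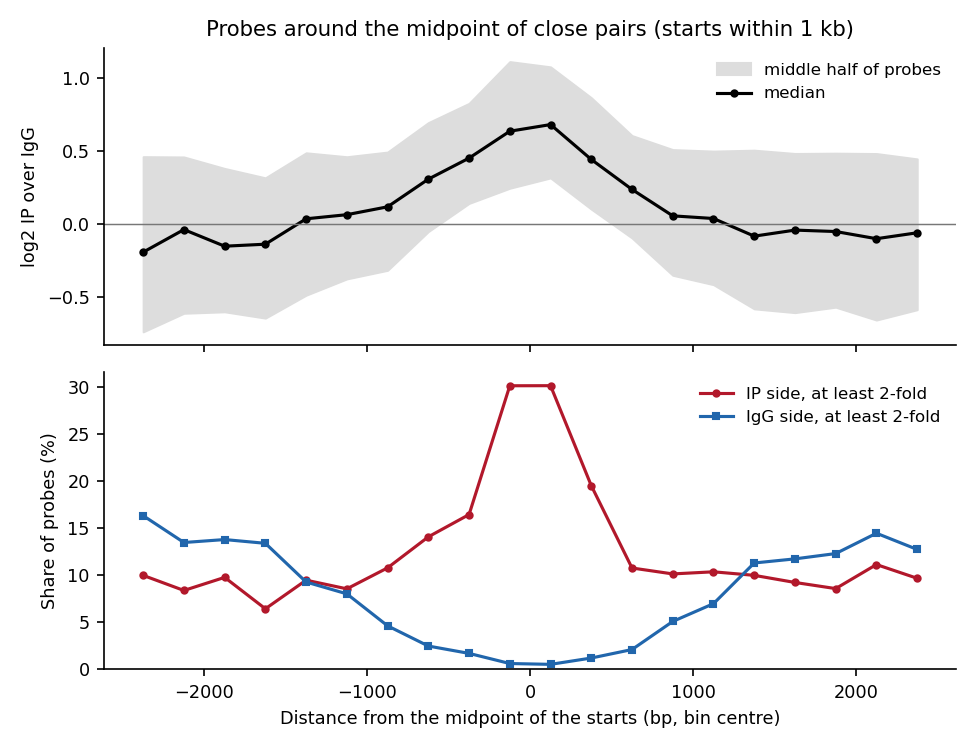
Kept probes around the midpoint of the starts of close pairs, in 250 bp bins placed at their centers, both arrays pooled, with the gene named first in the pair on the left. The upper panel gives the median log2 IP over IgG (line) and the range from the 25th to the 75th percentile of the probes (gray); the lower panel gives the percent of single probes at least 2-fold on the IP side (red) and the IgG side (blue). The median peaks at 0.68 and is near 0 beyond 1250 bp on either side.

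The same windows were followed into the genes. In the first 500 bp downstream of the start, genes of close pairs had 343 of 2625 windows on the IP side (13.1%), 9 on the IgG side (0.343%), and genes outside the pairs had 9.45% and 4.24% of 35837. From 500 to 1000 bp the IP-side shares were 6.68% and 8.21%. From 1000 to 2000 bp they were 5.20% and 7.15%, and the medians were -0.10 and -0.03. The share of close pairs was the higher one between the starts and in the first 500 bp of the genes, and the lower one farther in.

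Counted by pair, 491 of 1418 pairs had an IP-side window (34.6%), 223 had an IgG-side window (15.7%), and 90 had both. Pairs with more windows had more chances, so the pairs were also counted on windows within 500 bp of a start, where 17.3% of all 14504 promoters, pairs and single genes together, had an IP-side window and 7.18% an IgG-side window. Of close pairs, 167 of 590 (28.3%) had an IP-side window there and 1 had an IgG-side window. Intermediate pairs had 104 of 347 (30.0%) and 23, and wide pairs 78 of 280 (27.9%) and 27. The IP-side share by pair was thus alike in the 3 classes, though close pairs had a median of 1 window there, intermediate pairs 5 and wide pairs 4. Of single-gene promoters, 2165 of 13287 (16.3%) had an IP-side window and 991 (7.46%) an IgG-side window. At an equal number of windows the gap between close pairs and single genes was wider. With 1 window, 66 of 304 close pairs (21.7%) and 7.24% of 2349 single-gene promoters had it on the IP side. With 2 windows the shares were 29.9% and 14.8%, and with 3 windows 41.9% and 19.1%. Each window within 500 bp was above 0 in 516 of 590 close pairs (87.5%), 66.3% of all pairs and 56.4% of single-gene promoters. Single-gene promoters had a median of 2 windows there, and for many close pairs each window means a single one. Over all their windows, 110 close pairs had each window on the IP side, out of 116 such pairs among all 1418. That count was not made for single-gene promoters.

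The close pair with the highest signal was KIF9-KLHL18, the genes of a kinesin motor and of a Kelch-like adaptor of a ubiquitin ligase, on chromosome 3. Its 3 windows lay between 2.14 and 2.50. The probe 114 bp left of the midpoint of the starts had raw IP and IgG signals of 1899.8 and 408, a log2 value of 2.89. The probe 2 bp left of the midpoint had 2541 and 494, a value of 2.57. The probe 108 bp to the right had 905 and 379, a value of 1.83. The signal ended on both sides of the pair. The probe 738 bp to the left was at -0.08 and the probe 607 bp to the right at -0.37.

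COPE-DDX49, the genes of a coatomer subunit and of a DEAD-box RNA helicase, was bright. Its 3 divergent probes had IP signals of 5340, 11728 and 10048 against IgG signals of 1060, 1690.4 and 1865, for log2 values of 2.08, 2.36 and 2.04. The values fell to 1.39 at 272 bp to the left and to 1.19 at 234 bp to the right. MGC14376-WDR81, C14orf10-KIAA0391, KIAA0753-TXNL5, ANKMY2-BZW2, NAP1L3-RP1-32F7.2, MEA1-KLHDC3, UFD1L-CDC45L and SNX5-C20orf72 were, with KIF9-KLHL18 and COPE-DDX49, the first 10 close pairs with at least 2 IP-side windows, and had highest windows from 2.32 down to 2.02. All windows of these pairs were on the IP side, from 2 windows in ANKMY2-BZW2 to 4 in UFD1L-CDC45L, which joins a factor of protein quality control to a replication initiation factor. The close pair with the most windows all on the IP side was DCLRE1A-NHLRC2, with a DNA cross-link repair nuclease on the left, whose 6 windows lay between 1.47 and 1.79. These close pairs were chosen after their values had been seen.

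At the other end of the close pairs with 2 or more windows, C10orf63-THNSL1 had a highest window of -0.09, SEP15-HS2ST1 of -0.08, TRAPPC1-CNTROB of 0.01, C1orf41-LRRC42 of 0.02 and HIST1H2AD-HIST1H2BF of 0.04. In TRAPPC1-CNTROB, which joins a vesicle trafficking subunit to centrobin, the divergent probes read -0.03 and 0.28, from IP signals of 1107 and 1255 and IgG signals of 808 and 768. Inside CNTROB, 1619 to 1952 bp to the right of the midpoint, 4 adjacent probes read 2.35, 2.71, 2.27 and 1.98. Those probes were dim in the IgG channel, at 326 to 347, and so was a lone probe 2312 bp to the left, which read 4.07. In SEP15-HS2ST1, a selenoprotein gene and a heparan sulfate sulfotransferase gene, the divergent probes read -0.12 and -0.69. Both dim and bright windows were among these named pairs. The highest window of C10orf63-THNSL1 lay at the 97.2nd percentile of intensity on its array and that of KIF9-KLHL18 at the 95.4th, while those of MGC14376-WDR81 and NAP1L3-RP1-32F7.2 lay at the 33.4th and the 8.06th.

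**Figure D5:**
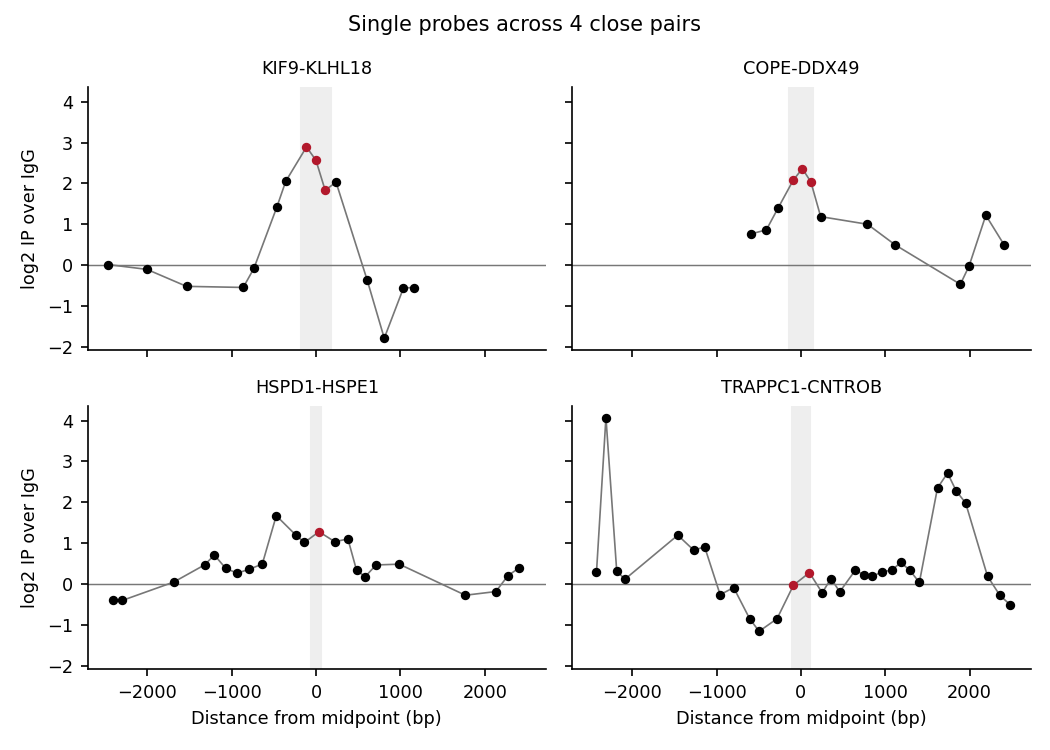
Log2 IP over IgG of single probes within 2500 bp of the midpoint of the starts for 4 close pairs, each from 1 array. Red points are probes annotated as divergent, black points are other kept probes, and the gray band spans the starts. KIF9-KLHL18 and COPE-DDX49 peak at 2.89 and 2.36 in the band, HSPD1-HSPE1 stays between 1.02 and 1.67 from 472 bp left to 377 bp right, and TRAPPC1-CNTROB is near 0 in the band, with its high probes more than 1400 bp away.

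Among 21 pairs known from textbooks as divergent, 14 were found on the arrays as divergent promoters, with starts 66 to 1083 bp apart. An IP-side window was found in 5 of the 14 and an IgG-side window in none, and the median of their highest windows was 0.81. All of the 14 but PSMB1-TBP were close pairs. The share was 28.5% over close pairs and 34.6% over all pairs, so the count of these pairs does not set them apart. HSPD1-HSPE1, the mitochondrial chaperonins Hsp60 and Hsp10, had 1 window of 1.11, whose probes read 1.02, 1.28 and 1.03. Its center probe had raw IP and IgG signals of 1813 and 614. TK1-AFMID, thymidine kinase 1 and a formamidase of tryptophan breakdown, had 1 window of 1.19, but its probes were uneven, at 2.18, 1.01 and 0.38. PRKDC-MCM4, the catalytic subunit of a DNA-dependent kinase and a subunit of the replicative helicase, had windows of 1.29 and 1.65. PSMB1-TBP, a proteasome subunit and the TATA-binding protein, had 3 of 5 windows on the IP side and a range from 0.88 to 1.07.

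The 9 textbook pairs without an IP-side window had highest windows from -0.06 to 0.92. TAP1-PSMB9, a peptide transporter and an immunoproteasome subunit, stood at 0.92, and BRCA1-NBR2 and ERCC8-mimitin, each with a DNA repair gene, both stood at 0.81. NPAT-ATM, which pairs a histone gene activator with a DNA damage kinase, had windows of 0.25 and 0.41. COL4A6-COL4A5, collagens of basement membranes, ranged from -0.25 to 0.20. SURF1-SURF2, with a cytochrome oxidase assembly factor, had a single window of -0.06, with probes at -0.48, 0.06 and 0.25.

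The pairs were then read by what their genes do, from 7 lists. Against 34.6% of all pairs, an IP-side window was found in 13 of 25 pairs with a cytosolic ribosomal protein gene, 10 of 24 with a mitochondrial ribosomal protein gene, 6 of 14 with a proteasome gene, 5 of 19 with a DNA repair gene, 4 of 18 with a clustered histone gene and 5 of 23 with a gene of respiratory complex I. The medians of the highest windows were 1.03, 0.97, 0.95, 0.72, 0.75 and 0.58, beside 0.79 over all pairs. In close pairs alone the counts were 5 of 8, 5 of 16, 2 of 9, 3 of 14, 1 of 10 and 4 of 16, beside 168 of 590 close pairs (28.5%). The ribosome, proteasome and complex I lists were drawn by gene symbol, so they can hold assembly factors. The complex I list held ERCC8-mimitin, where mimitin is the assembly factor NDUFAF2. It also held DKFZP564J0123 both with DALRD3 and with hsa-mir-425. The lists are small, and no test of them was made.

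The highest and lowest pairs show the range of the lists. Of the ribosomal pairs, RPL22-FLJ46380 reached 1.84 in a window at the 93.6th percentile of intensity, and RPL6-PTPN11, with a single window, was at -0.95. That window lay away from both starts. The divergent probe next to the PTPN11 start read 0.999, from IP and IgG signals of 1177 and 572, but was not the center of a window. Of the mitochondrial ribosomal pairs, MRPL9-OAZ3 reached 3.00 in a window at the 6.65th percentile, and MRPL14-TMEM63B was at -0.48. The divergent probe of MRPL14-TMEM63B was dim, with IP and IgG signals of 355 and 314. PSMD10-ATG4A, a proteasome regulatory subunit and an autophagy protease, reached 2.05 in its only window, whose 3 probes were unequal at 3.62, 1.31 and 1.21. Only the probe at 1.31 was annotated as divergent. The probe at 3.62 lay outside the starts and had IP and IgG signals of 734 and 326. ERO1L-PSMC6 was the lowest proteasome pair at 0.30. Of the DNA repair pairs, TP53BP1-MAP1A reached 1.85 in a dim window, at the 19.2nd percentile of intensity. It also fell to -1.73 in another of its 38 windows, and XPO5-POLH was at -0.37. HIST4H4-H2AFJ reached 1.39, also in a dim window, at the 16.7th percentile, and HIST1H2AJ-HIST1H2BM was at -0.02. NDUFB7-FLJ45910 was the lowest complex I pair at -0.13.

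Genes of the red cell and platelet lineages were in 5 divergent pairs, and 4 of the 5 had an IP-side window, beside 34.6% of all pairs. The 4 were intermediate or wide pairs with 5 to 24 windows each, and of all intermediate and wide pairs 39.8% and 38.4% had an IP-side window. KLF1-GCDH, with the erythroid Kruppel-like factor, had 4 of 10 windows on the IP side and a highest window of 1.49, centered 162 bp upstream of KLF1 and 3794 bp from GCDH. C16orf35-HBZ, with the zeta-globin gene, had 2 of 5 windows on the IP side and reached 1.33 at 9347 bp from HBZ. CTSZ-TUBB1, with the tubulin of platelets, had 3 of 24 windows on the IP side and reached 1.23 at 4690 bp from TUBB1. HECTD3-UROD, with a heme synthesis enzyme, had 1 of 5 windows on the IP side, at 1.07. UROS-BCCIP, with another heme synthesis enzyme and the only close pair of the 5, had windows of 0.04 and 0.05.

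The highest windows of all divergent promoters were mostly not in close pairs. Among pairs with at least 2 IP-side windows the first 10 were MRPL9-OAZ3 (3.00), TMEM55B-NP (2.93), ATP13A1-ZNF101 (2.92), PIR-BMX (2.83), CXorf42-ZBTB33 (2.70), AARS-DDX19B (2.66), SBF2-ADM (2.59), ITIH5L-MAGED2 (2.52), KIF9-KLHL18 (2.50) and FLJ12681-SOX8 (2.42), of which 8 were wide. Most of these windows were dim. The window of CXorf42-ZBTB33 lay at the 0.631st percentile of intensity on its array, that of PIR-BMX at the 1.48th and that of MRPL9-OAZ3 at the 6.65th. In MRPL9-OAZ3, which joins a mitochondrial ribosomal protein gene to an antizyme gene, 3 probes within 266 bp of the OAZ3 start read 1.80, 3.18 and 2.58, from IP signals of 569, 442 and 528 and IgG signals of 336, 309.7 and 317. The highest window of the pair held the last 2 of those probes and a neighboring probe at 3.25 that was not annotated as divergent. The 4 probes near the MRPL9 start read from 0.03 to 0.60. The high values of this pair rested on IgG signals close to the negative control median of 303.

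Among windows brighter than the array median, the highest were those of ATP13A1-ZNF101, KIF9-KLHL18, AARS-DDX19B, MGC14376-WDR81 and UBE2T-PPP1R12B, from 2.92 to 2.29. Those of AARS-DDX19B, UBE2T-PPP1R12B and ATP13A1-ZNF101 were little brighter than the median, at the 52.3rd, 54.0th and 54.5th percentile of intensity. The probes of the UBE2T-PPP1R12B window were uneven, from 1.02 to 4.55. In ATP13A1-ZNF101, a transmembrane ATPase gene and a zinc finger gene, the 3 probes lay 1602 to 1870 bp from ATP13A1 and read 3.28, 2.18 and 3.29, from IP signals of 756, 1310.2 and 1162 and IgG signals of 331, 435 and 354. SBF2-ADM, with the gene of the peptide hormone adrenomedullin, had the most extended signal of the 10, with 14 of 23 windows on the IP side. ITIH5L-MAGED2, also of the 10, held both extremes, with 6 windows on the IP side, 8 on the IgG side and a range from -2.61 to 2.52. Both extremes were dim. The highest window lay at the 5.24th percentile of intensity, with IgG signals of 299, 332 and 312 beside the negative control median of 303. The lowest had IP signals of 357, 349 and 348 beside the negative control median of 341.

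Pairs with 5 or more windows and no high window were also present. MTMR6-NUPL1 had a highest window of -0.65, EVC2-EVC of -0.63, FLJ31222-G6PC of -0.52, C1orf32-MAEL of -0.46 and RBBP9-SEC23B of -0.44. EVC2-EVC, a pair of cilium genes with starts 1648 bp apart, had 3 of 5 windows on the IgG side. Of its 5 probes, 1 was bright, with raw IP and IgG signals of 21713 and 10754 and a value of 0.08, and the other 4 had signals of 388 to 521 in both channels and values from -1.96 to -0.14. FLJ31222-G6PC, with the liver glucose-6-phosphatase gene, had 3 of 6 windows on the IgG side.

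Promoter sequences of RefSeq were matched to 995 of the 1190 gene names of close pairs (83.6%). Fewer than 80% of the names were matched for intermediate pairs, wide pairs and single genes, so base composition was compared only with the whole RefSeq promoter table. The 994 promoters of close pairs had a median GC content of 63.7% and a median of 26 CpG dinucleotides in 300 bases, against 58.3% and 14 over 27195 promoters. WGATAR on either strand was in 12.5% of them and in 25.4% of all promoters. An ETS-type motif (CCGGAAGT) was in 16.3% and 4.45%, an NRF1-type motif (TGCGCATGC) in 4.43% and 1.65%, CCAAT in 44.1% and 35.7%, the GC box (GGGCGG) in 69.6% and 44.7%, and TATAAA in 5.33% and 12.0%. The reverse complement was searched for each motif and no match is read as a bound site. The promoters of a close pair can overlap, so bases and motif sites in the overlap were counted once for each gene. The promoters of close pairs are thus not all separate stretches of DNA.

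Within the close pairs, 534 had a promoter sequence and a window. Of 92 pairs with WGATAR in either promoter, 32 (34.8%) had an IP-side window, and of 442 pairs without it 122 (27.6%) did. The medians of the highest windows were 0.87 and 0.72. With and without the ETS-type motif the shares were 30.7% and 28.4%, and with and without CCAAT 32.7% and 24.7%. With and without TATAAA they were 33.3% and 28.5%. For the NRF1-type motif and the GC box the order was the other way, at 22.6% with and 29.2% without the former and 28.2% with and 31.5% without the latter. For GC content, pairs were put in 4 groups, so its spread cannot be set directly against that of the motifs. The number of windows per pair was not matched in any of these splits. In the group with the highest GC content, 68.8% and above, 18 of 134 pairs (13.4%) had an IP-side window and the median of the highest windows was 0.42. In the other groups the shares were 28.4%, 39.6% and 34.1% in order of rising GC content, with medians of 0.79, 0.86 and 0.82. The part of base composition in the signal was not tested.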

How the data were processed

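The authors deposited the scanner output of 2 Agilent promoter arrays, 1 hybridization each. Per the file headers, the processed intensity values came from Agilent Feature Extraction 9.5.3.1, with spatial and multiplicative detrending and dye normalization. The deposited log10 ratio is Cy5 over Cy3, and the deposited p-value for that ratio was not used. The deposited log10 ratio differed from the ratio of the processed signals at 3898 spots, 7 of them divergent. The genome build of the probe coordinates is not given in the sources used here.

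Outlier spots were left out, as were probes that failed the well-above-background mark in both channels. Pairs were joined within 20000 bp. Named pairs were 21 textbook pairs, the top and bottom pair of each list, the 10 highest pairs with at least 2 IP-side windows, the 5 highest among windows brighter than the array median, and the 5 lowest with at least 5 windows. The members, lists and classes of pairs were chosen with earlier results of these data known. Calculations used Python 3.11.15, pandas 2.3.3, numpy 2.4.6 and scipy 1.17.1, and R 4.3.3 with limma 3.58.1 for the alternatives, which were loess and normexp normalization, other filters, windows, thresholds and matching. The window and matching steps were tested on simulated data. Of 2948 gene names, 2881 were matched to RefSeq. The values of 2 pairs that these rules name are not reported here.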

Additional observations from a re-analysis of the deposited data

How the results depend on the processing

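No paired analysis was possible because the arrays share no replicate of a probe and no test was run. The direction of each difference between divergent or close-pair windows and single-gene windows was kept under every alternative run, except that at 3-fold the IP-side difference over all divergent windows was -0.0459 points. For close pairs the IP-side difference was 6.95 points after loess, 19.6 after normexp, 10.5 with 5-probe windows, 28.0 at 1.5-fold, 2.87 at 3-fold and 9.59 with a limit of 2000 bp, and their IP-side share was 17.1% after loess, 30.5% with single probes, 17.4% with 5-probe windows, 55.3% at 1.5-fold, 4.99% at 3-fold and 19.9% with a limit of 2000 bp. Their IgG-side difference was -4.22, -1.32, -6.96, -3.71, -10.3 and -1.45 points after loess, normexp, single probes, 5-probe windows, 1.5-fold and 3-fold, -5.40 by the farther start, -5.87 with 1000 bp bins, and -2.15 and -1.87 with intensity quartiles and deciles. Their median difference was 0.33 after loess, 0.46 after normexp, 0.47 with 1000 bp bins, 0.34 and 0.29 with intensity quartiles and deciles, and 0.33 with a limit of 2000 bp.

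Over all divergent windows the IP-side difference was 0.274 points after loess, 3.49 after normexp, 4.23 at 1.5-fold, 2.67 by the farther start, 0.734 on chIP1 and 2.55 on chIP2. The IgG-side difference was -0.991 after normexp, -4.73 at 1.5-fold, -1.41 at 3-fold, -5.21 by the farther start, and -1.36 and -1.25 with intensity quartiles and deciles. The median difference was 0.074 after loess, 0.12 after normexp, 0.18 by the farther start, 0.064 and 0.054 with intensity quartiles and deciles, 0.077 on chIP1 and 0.12 on chIP2. The IP-side share was 9.005% after loess, 7.53% after normexp, 14.4% with single probes, 6.59% with 5-probe windows, 25.1% at 1.5-fold, 1.87% at 3-fold and 9.40% on chIP1. The IgG-side share was 5.44%, 1.42%, 10.7%, 3.97%, 15.1% and 1.30% under the first 6 of these. Within 1000 bp the IP-side share was 10.9% after loess, 18.2% with single probes, 9.31% with 5-probe windows, 33.7% at 1.5-fold and 2.43% at 3-fold. The IgG-side share there was 0.703% after normexp, 5.15% with single probes, 1.62% with 5-probe windows, 7.50% at 1.5-fold, 0.559% at 3-fold, 2.10% on chIP1 and 3.29% on chIP2. Pairs with an IP-side window numbered 813 with single probes, 294 with 5-probe windows, 904 at 1.5-fold and 116 at 3-fold, and pairs with an IgG-side window 81 after normexp, 464, 121, 423 and 68.

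Of 31 named pairs with an IP-side window, 28 were still on the IP side after loess, 26 after normexp and 28 with 5-probe windows. Bins of 100 bp, intensity deciles and the limits of 500 and 2000 bp were chosen after seeing the data. Matching on probe GC content was not run, since no genome of the build was used here, and matching on promoter GC content was void, with a sequence for 77.3% of single-gene windows. The causes of these shifts were not tested. Raw signals close to those of the negative controls limit the dim windows.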
